A study of Homo sapiens with 16 samples.

Results

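The 4 genes described here are FOS, FOSB, FOSL1 and FOSL2, which encode the FOS family of transcription factors. They were taken by name, with their hg19 spans, and each span was read with 2 kb before its start and 5 kb past its end. Earlier results of these data were known when they were chosen, so the counts and ranks below describe these genes only. Together these windows held 124 of the 257557 peaks in the 4 deposited peak lists. The cells were hTERT RPE-1, a wild-type human line from the retinal pigment epithelium, immortalised with telomerase, held in 0.1% serum for 48 h and fixed with 1% formaldehyde. RNA polymerase II (Pol II) was mapped with ChIP-seq, the sequencing of immunoprecipitated chromatin, using an antibody to the N-terminal part of its subunit Rpb1. The Pol II libraries were 3 with the vehicle DMSO for 30 min, 3 untreated, 3 with 200 uM merbarone for 30 min and 2 with 200 uM merbarone for 1 h. DNA topoisomerase II alpha (TOP2A) was mapped in 2 untreated libraries, and 3 IgG libraries were not analysed here. The DMSO and untreated Pol II libraries shared 1 list, the control list, and each of the other conditions had 1 list for all its libraries. No value below therefore has a spread between replicates or a test, and since DMSO lasted 30 min, no control list matches the 1 h time. All libraries came from the same cell line, and its identity could not be checked against marker genes from peak positions alone.

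FOS family proteins pair with JUN family proteins to form AP-1, a dimer that binds DNA through a basic region and a leucine zipper. FOS and FOSB are classic immediate-early genes: they are nearly silent in resting cells and are transcribed within minutes of a stimulus, without new protein synthesis. FOSL1 (also called FRA1) and FOSL2 (FRA2) lack the strong activation domain of FOS and FOSB, and their transcription usually lasts longer. At many such genes Pol II waits just past the start and is released into the gene when the stimulus comes. TOP2A relaxes the supercoils that moving Pol II builds up, and merbarone blocks its catalytic cycle before DNA is cut.

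The stretch just before the start is shown for the 3 members found in the RefSeq promoter table, because Pol II peaks lay over the start of each in every list. Each line gives the 250 bases before the start on the strand of the gene (plus in each case), from GRCh38, which is not the build of the peaks. They are chr14:75278578-75278827 for FOS, chr19:45467746-45467995 for FOSB and chr2:28392608-28392857 for FOSL2. Capitals mark TGACGT, the first letters of the cyclic AMP response element TGACGTCA, and the TATA box TATAAA.
FOS: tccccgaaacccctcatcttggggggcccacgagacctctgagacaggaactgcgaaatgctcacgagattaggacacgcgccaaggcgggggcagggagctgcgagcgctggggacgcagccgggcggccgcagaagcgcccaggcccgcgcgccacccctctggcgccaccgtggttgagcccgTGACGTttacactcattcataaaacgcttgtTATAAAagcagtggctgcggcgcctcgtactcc
FOSB: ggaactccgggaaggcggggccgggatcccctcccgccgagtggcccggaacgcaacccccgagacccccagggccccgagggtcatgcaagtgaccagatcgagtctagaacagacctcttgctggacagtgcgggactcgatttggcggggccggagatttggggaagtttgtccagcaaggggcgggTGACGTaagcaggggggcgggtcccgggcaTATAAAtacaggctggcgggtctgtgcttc
FOSL2: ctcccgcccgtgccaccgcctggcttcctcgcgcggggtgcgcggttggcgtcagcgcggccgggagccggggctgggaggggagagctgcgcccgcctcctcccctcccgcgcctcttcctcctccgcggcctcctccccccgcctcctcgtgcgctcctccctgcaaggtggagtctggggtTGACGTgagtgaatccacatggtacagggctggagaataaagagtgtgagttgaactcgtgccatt
The start here is that of the RefSeq table, which need not be the same base as the start of the hg19 span. TGACGT began 64 bases before the start in FOS, 60 in FOSB and 66 in FOSL2. It was searched for after the sequences had been seen, and 7.10% of the 35116 promoters in the table hold it on either strand in the same 250 bases. TATAAA began 33 bases before the start in FOS and 30 in FOSB, and was not in the FOSL2 stretch. It was in 10.7% of all promoters. The GC box GGGCGG was in all 3 stretches and in 42.6% of all promoters. The full TGACGTCA, the AP-1 site TGANTCA and the CArG box of the serum response element were in none of the 3 stretches. They were in 1.65%, 6.57% and 1.16% of all promoters, with both strands read each time. Bases further upstream than these 250 were not searched, so absence here does not show that a gene lacks such a site. Of a fixed list of 25 AP-1 partners and other immediate-early genes, 20 were in the table. TGACGT was found in 5 of them (JUND, EGR1, EGR2, DUSP1 and ELK4), TATAAA in 3 (JUNB, ATF3 and DUSP1) and the CArG box in 2 (EGR1 and EGR2). The full TGACGTCA was in 2 (JUND and DUSP1), the GC box in 12 and the AP-1 site in 0. Pol II cover of this list was not analysed here, because no gene positions on hg19 were at hand beyond the 4 spans.

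**Figure D1:**
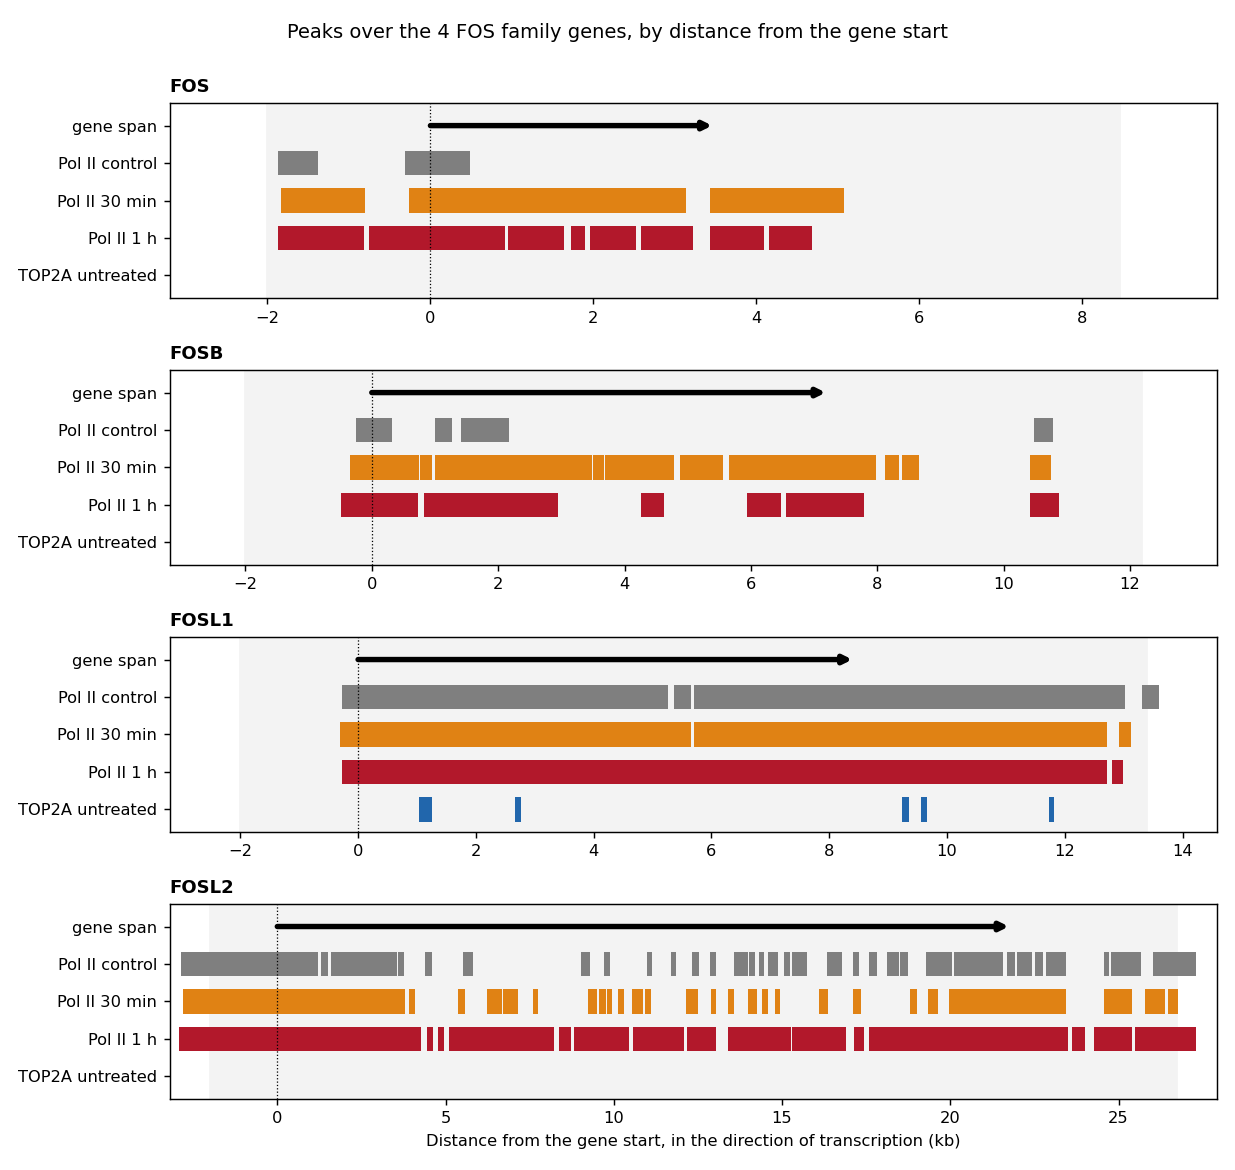
Peaks of the 3 Pol II lists and the TOP2A list over FOS, FOSB, FOSL1 and FOSL2, drawn to scale against distance from the gene start in kb; the arrow is the gene span and the grey band the window read. At 30 min and 1 h Pol II peaks covered 91.4% and 87.2% of the FOS span, 95.9% and 61.1% of the FOSB span and 48.7% and 92.1% of the FOSL2 span. The FOSL1 span was nearly filled in every list, and only FOSL1 held TOP2A peaks.

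The measure used is cover, the share of a stretch that lies under peaks. A peak is an interval called as bound; it carries no height, so cover says how far Pol II was detected along a gene, not how much of it was there. In control the windows were covered over 85.8% at FOSL1, 54.7% at FOSL2, 13.5% at FOSB and 12.3% at FOS. At 30 min the order was FOSL1 with 85.7%, FOSB with 62.5%, FOS with 58.1% and FOSL2 with 55.7%. At 1 h it was FOSL2 with 92.4%, FOSL1 with 85.6%, FOS with 57.3% and FOSB with 42.0%. The members with the lowest cover in control, FOS and FOSB, were thus the ones covered more at 30 min. FOSL2 was covered more at 1 h alone, and FOSL1 was covered alike in all 3 lists. With 1 list per condition, it cannot be said whether neighbours in these orders differ beyond their spread.

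A window was counted as covered more or less when its cover differed by at least 10 percentage points. At 30 min against control this held for 2 of 4 members, FOS and FOSB, both covered more. Among all windows of the same length laid end to end along the genome and holding any Pol II peak, 6.48% were covered more by that much at the FOS length, 4.78% at the FOSB length, 4.3% at the FOSL1 length and 1.81% at the FOSL2 length. At 1 h against control 3 of 4 members were covered more, FOS, FOSB and FOSL2, against 16.3%, 13.4%, 12.4% and 7.77% of windows at the FOS, FOSB, FOSL1 and FOSL2 lengths. From 30 min to 1 h FOSB was covered less and FOSL2 more. Over that step, 2.19%, 1.5%, 1.38% and 0.56% of windows at the 4 lengths, in the same order, were covered less, and 11.9%, 9.46%, 8.79% and 5.14% more. Pol II domains of at least 5 kb were built by joining the peaks of the 3 lists across gaps of up to 5 kb. The domain values of the members given below, unlike the window values, were counted after joining peaks up to 37 bp apart. Peaks under 159 bp were left out of them. Against control, 25.7% of 5233 domains were covered more at 30 min and 57.2% of 5273 at 1 h. From 30 min to 1 h, 39.5% of 5423 such domains were covered more and 5.83% less. The number of domains compared thus differed between the comparisons. The whole control list covered 42.8 Mb, the 30 min list 47.7 Mb and the 1 h list 58.3 Mb.

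**Figure D2:**
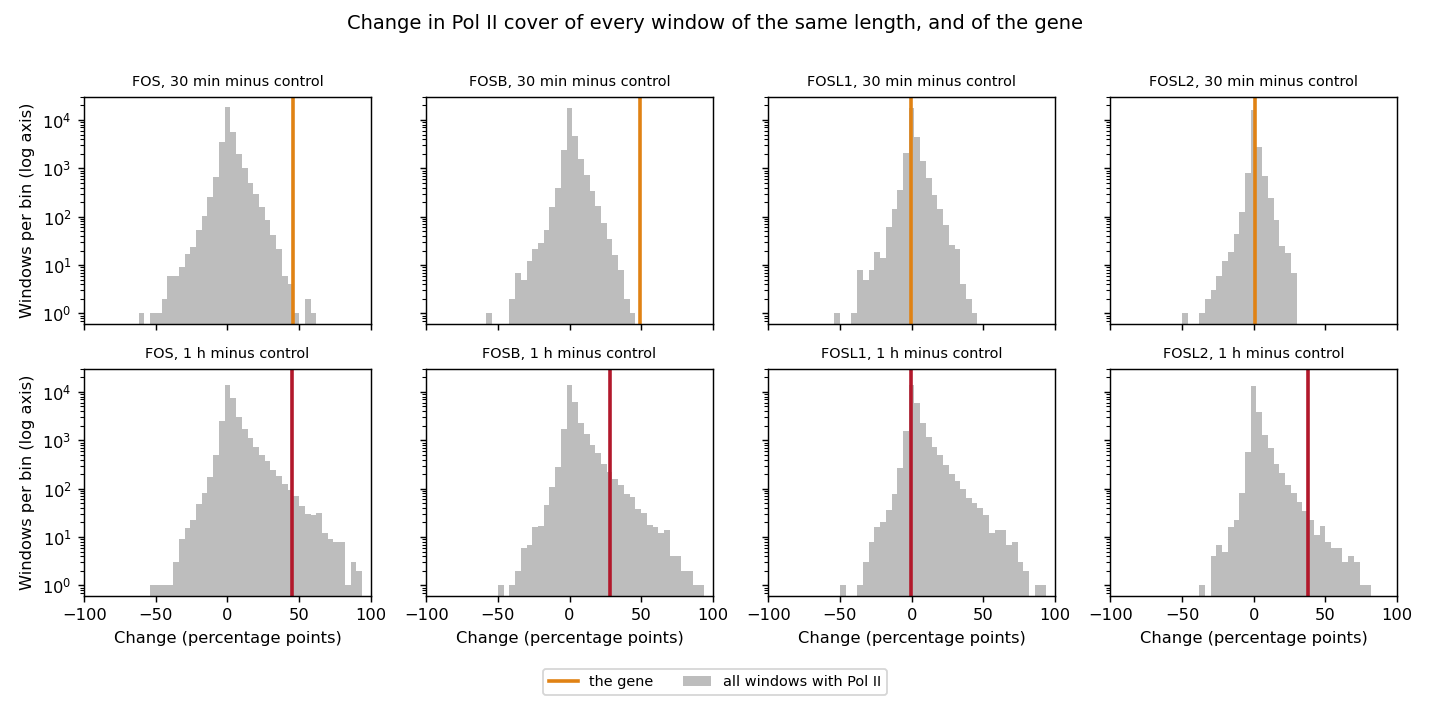
Change in Pol II cover, in percentage points, of all windows of each gene's length with any Pol II peak (grey, windows per 4-point bin on a log axis) and of the gene itself (line), at 30 min (top) and 1 h (bottom) against control. FOS (45.8 points) and FOSB (48.9 points) stood at the far right at 30 min, FOSL1 stood near 0 at both times, and FOSL2 went from 1.06 points at 30 min to 37.7 points at 1 h.

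FOS, the founding member and partner of JUN in AP-1, spans 3457 bp on chromosome 14 from 75745481 to 75748937 on the plus strand. In control its window held 2 Pol II peaks. One lay over the start, from 317 bp before it to 481 bp after, and the other, of 483 bp, lay 1868 to 1386 bp before it. From 1 kb past the start to the end of the gene, called the body here, there was no control peak. At 30 min a single peak of 3395 bp ran from 264 bp before the start to 3130 bp after it, and another of 1646 bp ran from 3427 bp after the start across the gene end and 1616 bp past it. Between them a gap of 296 bp stood just before the gene end. At 1 h the same stretch was in 7 peaks of 181 to 1668 bp, the last ending 1220 bp past the gene end.

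Cover of the FOS body was 0% in the control list, 88.0% at 30 min and 83.6% at 1 h. The first 2.5 kb past the gene end went from 0% to 64.6% and 46.3%, and the next 2.5 kb stayed at 0% in all 3 lists. The start, 1 kb on either side, was covered over 40.0%, 73.0% and 95.4%. At 30 min the addition lay away from the start itself: within 500 bp on either side the difference from control was -3.5 percentage points, since the control peak reached 53 bp further upstream. At 1 h cover within 500 bp was 20.1 points above control. In the 1 kb after the start the shares were 48.2%, 100% and 96.1%, whereas in the 1 kb before it they were 31.7%, 46.1% and 94.7%. The upstream peak of 483 bp in control had widened to 1032 bp at 30 min and 1064 bp at 1 h, where only 53 bp parted it from the peak over the start. Of windows of the FOS length, 4 of 32786 had a change at 30 min at least as large as the 45.8 points of FOS. At 1 h 270 had one at least as large as its 45.0 points. Windows that overlap FOS itself are among those counted. The Pol II domain around FOS was 69.0 points above control at 30 min and 67.8 points above it at 1 h. A change at least as large was found in 1 of 5233 domains at 30 min and 6 of 5273 at 1 h, counts that can include that domain itself.

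FOSB, which encodes a close relative of FOS with a like activation domain, spans 7185 bp on chromosome 19 from 45971253 to 45978437 on the plus strand. In control 3 peaks lay in its first part: from 247 bp before the start to 325 bp after it, from 999 to 1274 bp, and from 1405 to 2178 bp. No control peak followed for 8308 bp, up to a small one of 295 bp that began 10487 bp after the start, past the gene end. The RefSeq table places the tRNA gene TRU-TCA1-1 within a window of the same reach on GRCh38, and Pol II of FOSB cannot be told apart from signal at that gene in the downstream stretch. At 30 min the span held 7 peaks that left 297 bp of it uncovered, with no gap over 108 bp. The widest pieces were 2472 bp, from 1006 to 3477 bp, and 2325 bp, from 5661 to 7985 bp, the latter crossing the gene end by 801 bp. Pol II cover thus reached from end to end of FOSB at 30 min. At 1 h it had opened in the middle: gaps of 1315 bp, from 2943 to 4257 bp, and of 1302 bp, from 4630 to 5931 bp, parted 3 covered stretches.

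Cover of the FOSB body was 17.0% in the control list, 96.1% at 30 min and 56.4% at 1 h. With the body cut into 3 equal parts, the first went from 50.9% to 99.7% and 94.2%, the middle from 0% to 93.8% and 18.0%, and the last from 0% to 94.8% and 57.0%. The cover absent at 1 h was therefore mostly that of the middle part, while both ends of the gene kept more. The first 2.5 kb past the gene end stood at 0%, 51.7% and 24.3%. The start was covered over 28.7%, 64.6% and 69.8%, with no peak between 2 and 1 kb before it in any list. The window as a whole was 48.9 points above control at 30 min. That was more than in any of the 28475 windows of its length, which were laid without regard to genes. At 1 h the FOSB window was 28.5 points above control, and 634 windows were higher by at least as much. From 30 min to 1 h the difference was -20.5 points, and 87 windows were lower by at least as much over that step. The Pol II domain around FOSB was 61.5 points above control at 30 min, and 3 of 5233 domains had a change at least as large. At 1 h it was 35.5 points above control, and 311 of 5273 domains were higher by at least as much. From 30 min to 1 h its difference was -25.9 points, and 33 of 5423 domains were lower by at least as much.

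**Figure D3:**
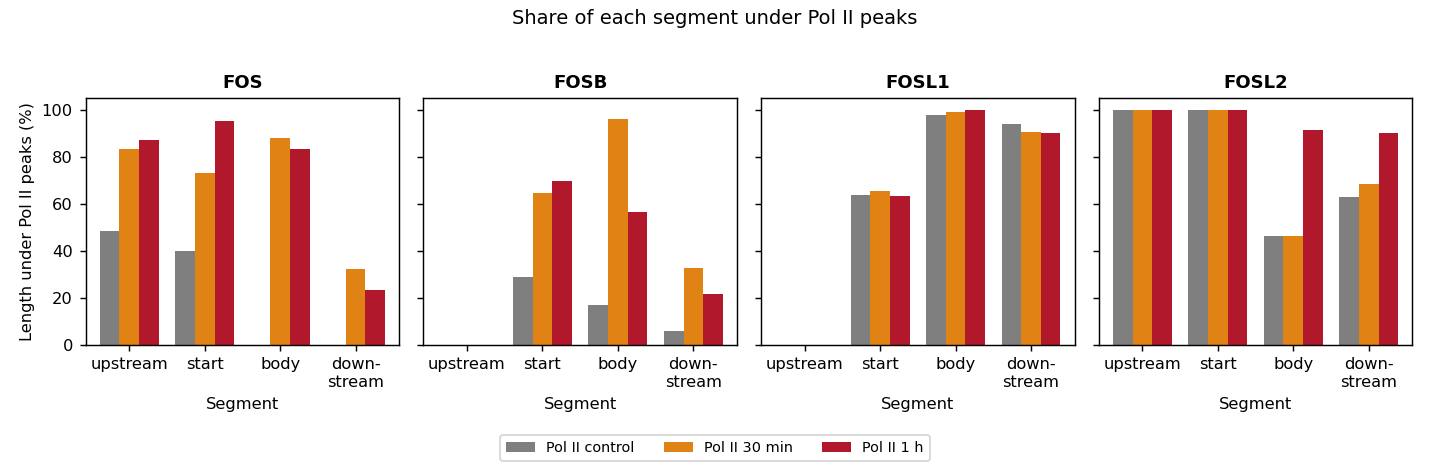
Share of the upstream stretch (2 to 1 kb before the start), start (1 kb either side), body and 5 kb downstream under Pol II peaks, as percent of the segment's length, for the control, 30 min and 1 h lists. The bodies of FOS and FOSB were covered most at 30 min (88.0% and 96.1%), and that of FOSL2 at 1 h (91.7%).

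FOSL1, the gene of FRA1, spans 8391 bp on chromosome 11 from 65659607 to 65667997 on the minus strand. Control Pol II peaks already covered 98% of the span, in peaks of 5541, 283 and 7309 bp. They were parted by gaps of 107 and 57 bp only. At 30 min there were 2 peaks over the span, of 5972 and 7012 bp, with 53 bp between them, and 99.4% was covered. At 1 h 1 peak of 12987 bp ran from 268 bp before the start through the gene and 4328 bp past its end, and cover was 100%. Within the gene, 1 h thus differed from control by the closing of 2 small gaps. The start was covered over 64.0%, 65.7% and 63.4%, because Pol II ended 280, 314 and 268 bp before it. Downstream cover was 94.1%, 90.8% and 90.3%. The whole window differed from control by -0.10 points at 30 min and -0.24 points at 1 h. A gene whose length is nearly all covered in control has little room for more, so a change in the amount of Pol II would not show in this measure.

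TOP2A peaks lay in the FOSL1 window and in no other. A TOP2A peak was present in 4.04%, 4.65%, 4.83% and 6.31% of windows of the FOS, FOSB, FOSL1 and FOSL2 lengths. FOSL1 held 5. The widest, of 211 bp, lay from 1042 to 1252 bp after the start, on chromosome 11 from 65666745 to 65666955. Another of 110 bp lay from 2658 to 2767 bp after the start. The other 3, of 128, 88 and 83 bp, began 839, 1174 and 3344 bp past the gene end. All 5 lay wholly under Pol II peaks in the control, 30 min and 1 h lists. In these lists Pol II covered 97.8%, 99.3% and 100% of the FOSL1 body and 94.1%, 90.8% and 90.3% of the downstream stretch. Most narrow peaks placed there would lie under Pol II, so the overlap shows little. For the other members the nearest TOP2A peak was 44.2 kb from the start at FOSB, 477 kb at FOSL2 and 659 kb at FOS. TOP2A was mapped in untreated cells alone, so whether it was there after merbarone was not tested, and the list holds few peaks. Absence from it does not show absence of TOP2A.

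The 5 kb past FOSL1 also hold other genes. In the RefSeq table CCDC85B is the next coding gene past its end, and it and FIBP fall within a window of the same reach on GRCh38. ChIP-seq has no strand, so Pol II of FOSL1 that ran on past its end cannot be told apart from Pol II of these genes, nor can it be said which gene the TOP2A peaks past the end belong to.

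FOSL2, the gene of FRA2, is the longest member, at 21738 bp on chromosome 2 from 28615779 to 28637516 on the plus strand. Its start lay under wide Pol II peaks in every list: the start segment was covered over 99.9% in control and 100% at both merbarone times. The peak over the start reached 853 bp into the gene in control, and 3788 and 4263 bp at 30 min and 1 h. Control peaks beyond it, parted by gaps as short as 2 bp, carried cover on to 3758 bp, so the nearly unbroken stretch was about as long in control as at 30 min. Further on, cover was broken into small peaks. The window held 35 peaks in control and 27 at 30 min. At 1 h it held 15, of which 3 were under 300 bp, and their median width was 1524 bp against 252 bp in control and 250 bp at 30 min.

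Cover of the FOSL2 body was 46.1% in the control list, 46.2% at 30 min and 91.7% at 1 h. The like shares of the first 2 lists were spread differently along the gene. Many of the peaks were under 300 bp, and whether this difference recurs between libraries was not tested. In the first of 3 equal parts of the body cover was 44.1% in control and 61.8% at 30 min, in the middle part 30.0% and 35.3%, and in the last part 64.2% and 41.6%. At 1 h these parts stood at 93.0%, 88.3% and 93.8%. The widest gap in the window was 3216 bp in control, from 5815 to 9030 bp after the start. At 30 min the widest was 1468 bp, from 7752 to 9219 bp. At 1 h the widest was 371 bp and lay elsewhere, from 13030 to 13400 bp. The 5 kb past the gene end were covered over 62.9%, 68.4% and 90.4%. The window was 37.7 points above control at 1 h, and 85 of 20697 windows of its length were higher by at least as much. The Pol II domain around FOSL2 was 34.9 points above control at 1 h, and 331 of 5273 domains were higher by at least as much. With peaks within 1 kb of each other joined in every list, the difference at 1 h was 19.1 points, and at 30 min it was -7.04 points in place of 1.06. The RefSeq span of FOSL2 is 2722 bp longer than the one used here, so part of the downstream stretch may lie within the gene, and the antisense gene FOSL2-AS1 overlaps it.

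**Figure D4:**
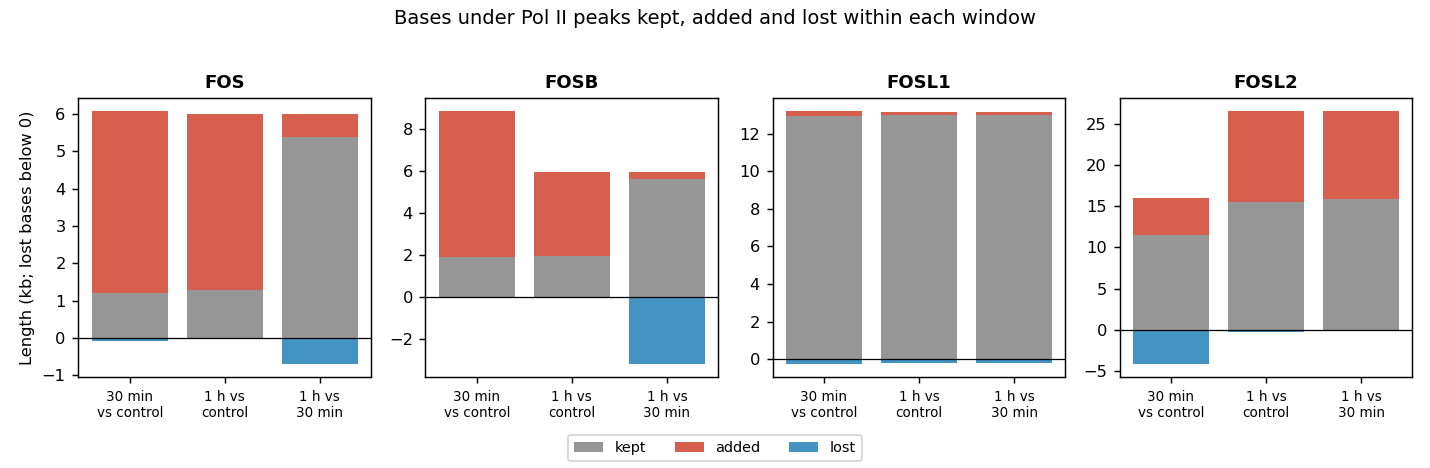
Length under Pol II peaks, in kb, that was kept (grey), added (red) or lost (blue, drawn below 0) within each window, for 30 min against control, 1 h against control and 1 h against 30 min; each panel has its own axis. FOSB lost 3232 bp from 30 min to 1 h, and FOSL2 both added and lost over 4 kb at 30 min.

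Base by base, little control cover was lost at FOS, FOSB or FOSL1. At FOS 4877 bp were added at 30 min and 86 bp lost, and at 1 h all 1282 control bases were covered. At FOSB 6985 bp were added and 42 bp lost at 30 min, and at 1 h all 1918 control bases were covered. From 30 min to 1 h FOS kept 88.4% of its covered bases and FOSB 63.5%. FOSL2 differed: at 30 min 4504 bp were added and 4200 bp lost, so that 73.3% of control cover was kept, yet at 1 h 98.6% of it was covered. Of its peaks, 21 of 35 in control and 18 of 27 at 30 min were under 300 bp, and whether such narrow peaks recur between libraries was not tested. At FOSL1 260 bp were added and 276 bp lost at 30 min.

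The stretches around the windows were compared in the same way. In the 20 kb before the FOS window cover was 5.77%, 6.10% and 5.37% in the control, 30 min and 1 h lists, and in the 20 kb past it 2.90%, 4.20% and 3.12%. Around FOSB the 20 kb before the window stood at 3.05%, 3.67% and 11%, and the 20 kb past it at 4.17%, 4.50% and 4.0%. Before the FOSL2 window the shares were 4.27%, 4.06% and 4.55%, and past it 16.5%, 13.0% and 19.2%. The flanks of FOS and FOSB thus differed little from control at 30 min. FOSL1 lay in a stretch dense in Pol II, with 54.5%, 56.1% and 54.1% before its window and 56.1%, 63.6% and 66.5% past it. By the RefSeq table the nearest coding genes before and past each member are TMED10 and JDP2 for FOS and ERCC1 and RTN2 for FOSB. They are C11orf68 and CCDC85B for FOSL1, and BABAM2 and PLB1 for FOSL2.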

How the data were processed

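Per the submitters' processing notes, the authors' tools were Bowtie 1.2.0 for alignment, MACS2 for peaks and deepTools 2.4.1, with hg19 as the genome. The sources used here do not state how libraries were merged, which input or IgG was set against them or which threshold defined a peak. Each peak is deposited as a chromosome, start and end in bp, read as counted from 0 and printed counted from 1. There is no score and depth is unknown.

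Cover was counted in Python 3.11.15 with numpy 2.4.6 over the window, start, body and downstream stretch of all 4 members, the only genes named with values. The background was every window of the same length from the first base of each chromosome that held a Pol II peak. For like limits, Pol II peaks up to 37 bp apart were joined and those under 159 bp left out. Domain cover of the members was counted with like limits. Intervals behind the comparison of settings came from statsmodels 0.14.6, and plots from matplotlib 3.10.9. The interval functions were tested on simulated lists with known answers, and 0 of 641 checks failed. The members and gene lists were chosen with earlier results of these data known. IgG libraries were left out because no peak list stands for them.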

Additional observations from a re-analysis of the deposited data

How the results depend on the processing

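The counts of members covered more at 30 min (2), more at 1 h (3) and less at 1 h than at 30 min (1) were the same with like limits, with peaks of at least 300 bp only, with peaks within 1 kb joined, with a window of 1 kb before to 2 kb past the gene, with the span alone and with a threshold of 20 points. The count with TOP2A (1) was the same without peaks of 73 bp, the smallest width, within the span alone, and with 50% of the peak required inside. Over these settings and the domain around the start, which was chosen after seeing the data, the change at 30 min ran from 45.8 to 77.5 points at FOS and from 46.7 to 76.7 at FOSB. At 1 h it ran from 43.3 to 73.3 points at FOS, 24.1 to 42.0 at FOSB and 19.1 to 49.8 at FOSL2. The change at FOSL1 ran from -2.65 to 2.82 points at 1 h and so had no stable sign, as had that of FOSL2 at 30 min, from -7.04 to 2.42. Of 220 values for single genes and background shares, 1 with a change of at least 10 points turned its direction: the change at the FOS start at 30 min, -3.5 points with 500 bp on either side, since the added cover lay further out. Of the rest, 75 were classed as the same and 144 as moved. The moved class also holds values that stayed at 0, such as the FOSL2 start from 30 min to 1 h. It holds small values that changed sign too, such as the FOSL1 window at 30 min, -0.10 points against 0.87 with peaks of at least 300 bp. The 144 is therefore not a count of real changes. With peaks within 1 kb joined, the change at the FOSB start went from 35.85 to 5 points at 30 min and from 41.15 to 12.4 at 1 h. That of the FOSL2 body at 1 h went from 45.6 to 20.8 points. Background shares of windows with a control peak were higher than of windows with any Pol II peak, for example 7.63% against 6.48% at the FOS length at 30 min. No paired analysis was possible because each condition has 1 list for all its libraries, and for the same reason no replicate could be left out. Without depth or peak heights, deeper sequencing and wider binding cannot be told apart.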
